A study of Sus scrofa with 20 samples.

Results

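Transcripts were chosen that stood above control in LLC-PK1 cells with polycystin-2 silenced and near control with polycystin-1 silenced, and their arm difference was then measured in other libraries, from cells in which MRTF-A was silenced too. The group holds 210 of the 46295 transcripts in the deposited table. Of the 208 with enough counts to be called, 89 (42.8%) were higher in siPC2+siMRTF-A than in siPC1+siMRTF-A cells, against 4.82% of all transcripts. Lower calls were made for 0 members, against 4.28% of all transcripts, and the median log2 difference was 0.60. LLC-PK1 is a porcine epithelial line with features of the proximal tubule. RNA was sequenced from 20 libraries in 5 groups, named by the small interfering RNAs (siRNAs) the cells received: a non-related control siRNA (siNR, 4 libraries), siPC1 (5 libraries), siPC2 (3 libraries, numbered 2 to 4), siPC1 together with siMRTFA (here siPC1+siMRTF-A, 4 libraries) and siPC2 together with siMRTFA (here siPC2+siMRTF-A, 4 libraries). Serum was withdrawn some time after transfection, for the last stretch before the cells were assayed. No group received the siRNA against MRTF-A alone. Each polycystin was silenced by a siRNA of its own, at a higher concentration for siPC1 than for siPC2, so what follows from the loss of the protein and what follows from the siRNA molecule or its dose cannot be told apart.

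Polycystin-1 is a large receptor-like membrane protein, and polycystin-2 is a cation channel of the TRP family. Both sit in the primary cilium and other membranes of kidney tubule cells, where they form a complex, and inherited loss of either causes autosomal dominant polycystic kidney disease. Because the proteins act together, transcripts that answer to the loss of the channel subunit alone could bear on functions the partners do not share. Whether the members are such transcripts was not tested. MRTF-A is a coactivator of serum response factor. It is held in the cytoplasm by monomeric actin and moves to the nucleus when actin polymerizes, where it turns on cytoskeletal and matricellular genes.

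The members were chosen by their measured levels in the siNR, siPC1 and siPC2 libraries. Levels are CPM, a transcript's estimated count per 1000000 counts of its library, compared as log2(CPM + 0.5). A member had a mean of at least 1.3 CPM over the 20 libraries, which 20292 transcripts reached. Its mean log2 level was at least 0.8 higher with siPC2 than with siNR (3468 of the 20292), it differed by at most 0.3 between siPC1 and siNR (316 of the 3468), and every siPC2 library lay above every siNR and siPC1 library (210 of the 316). The shallow siPC1 replicate 1 was ignored in the last condition only. At the edge of the rise condition, the lowest member had a rise of 0.80023 and the highest of the 710 transcripts that met only the other conditions had 0.79855. At the edge of the siPC1 condition, the absolute differences nearest the limit were 0.29995 inside and 0.30477 outside, and for the mean level they were 1.30026 CPM inside and 1.26754 CPM outside. The siNR, siPC1 and siPC2 levels of the members are therefore descriptions, and they are not tested here. The list changed with the scaling and with siPC1 replicate 1. When library totals were scaled by TMM factors, 152 transcripts met the rule, 108 of them among the 210, and with siPC1 replicate 1 left out of the siPC1 mean as well, 208 met it, 172 of them among the 210.

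The deposited identifiers are Ensembl transcripts, the files do not pair them with genes, and 0 of the 46295 matched the tables of gene names used here. The members are therefore described as a group, with 4 of them given by identifier. The knockdown of the targeted genes, proximal tubule markers and gene functions were not analysed here. Reads shared by several transcripts of a gene were divided among them by estimation, so a transcript can rise or fall because of how these reads were divided.

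Library totals (the sum of estimated counts) lay between 35523102 and 50599719 in siNR, 4421001 and 46931983 in siPC1, 11790504 and 36740001 in siPC2, 22874625 and 52367885 in siPC1+siMRTF-A, and 36981625 and 71007731 in siPC2+siMRTF-A. The median member had 44.8 counts in siPC1 replicate 1 and between 230.1 and 1088 in the other libraries. No pair of libraries within a group was alike within sampling noise (lowest chi-square per degree of freedom 9.34). The labels do not say whether the libraries came from separate cultures, so p-values measure the spread between these libraries, which may be technical.

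In the libraries that chose them, the members lay a median of 0.99 above siNR with siPC2 on the log2 scale (quartiles 0.89 and 1.25, highest 4.38), a fold of 1.99. With siPC1 the median was 0.09. Over the 20292 transcripts the same medians were 0.16 and 0.13, so the typical transcript also stood above siNR on this scale. The median over the members was 1.09 in the shallow replicate 2, 0.96 in replicate 3 and 1.01 in replicate 4. The 5 siPC1 libraries had medians from 0.06 to 0.19, and the 4 siNR libraries from -0.09 to 0.07. Because each library is a bulk culture, a change in the RNA of every cell and a change in the share of cells that carry a transcript cannot be told apart.

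**Figure D1:**
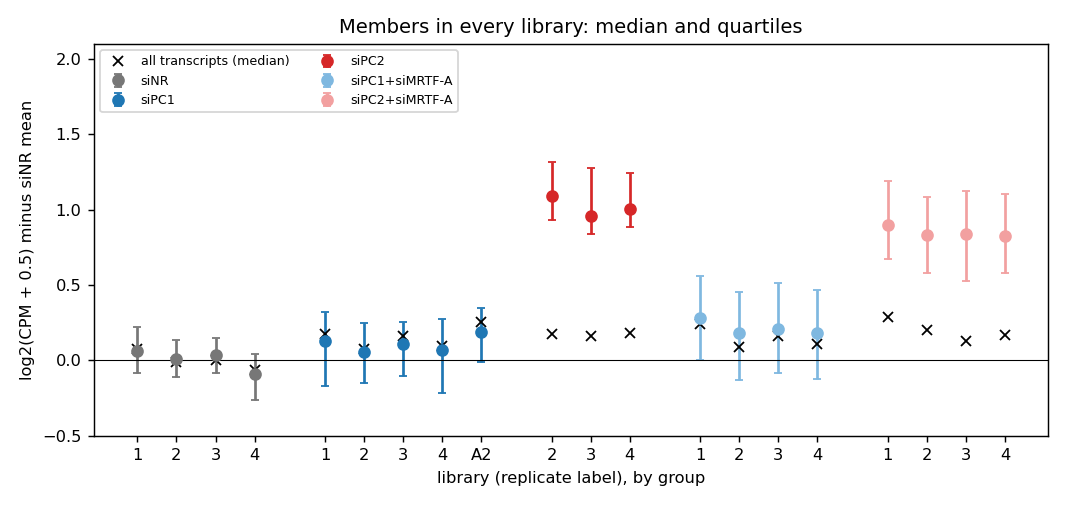
Median (points) and quartiles (bars) over the 210 members of log2(CPM + 0.5) minus the siNR mean, for each of the 20 libraries, coloured by group; crosses give the median of the 20292 transcripts with at least 1.3 CPM. The siPC2 libraries (0.96 to 1.09) chose the members, whereas the siPC2+siMRTF-A libraries (0.83 to 0.90) and siPC1+siMRTF-A libraries (0.18 to 0.28) did not, and these do not overlap.

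The siPC2+siMRTF-A and siPC1+siMRTF-A libraries took no part in the choice, apart from the mean of at least 1.3 CPM over all libraries, so the contrast between them asks whether the arm difference was seen again. It was fitted on these 8 libraries alone, so that the spread, too, came from libraries that had not chosen the members. Calls needed an adjusted p no higher than 0.05 and a log2 fold change beyond 0.6 in either direction, and were made only where the normalized counts of the 8 libraries averaged 50 or more. Of the 210 members, 209 passed the filter on low counts and 208 had the mean count needed for a call. The member that did not pass the filter was the one with the highest siPC2 rise, ENSSSCT00000054750.3, which is named because of this value and not by the rule for named members. It had 16.6, 16.5 and 15.5 CPM in siPC2 replicates 2 to 4, 0 to 0.972 CPM in siNR and 0 to 0.904 CPM in siPC1. In siPC2+siMRTF-A it had 0.435, 0.338, 0 and 0.292 CPM, and in siPC1+siMRTF-A 0, 0, 0.105 and 0 CPM. Its siPC2+siMRTF-A level thus lay within the range of siNR, 4.48 below siPC2 on the log2(CPM + 0.5) scale, and its arm difference in these libraries was not tested. Of these 208, 89 (42.8%) were called higher in siPC2+siMRTF-A (edgeR's quasi-likelihood test, Benjamini-Hochberg adjusted over all transcripts fitted), against 992 of all 20599 transcripts with that mean count, or 4.82%. Both minimums were set on means that include siPC2+siMRTF-A, so a transcript could be admitted by the group in which it was high. Among the 197 members whose siPC1+siMRTF-A libraries alone averaged at least 1.3 CPM and 50 counts, a restriction added after seeing the data, 82 (41.6%) were called higher, against 4.51% of all transcripts held to the same restriction, and the median log2 fold change was 0.58. In the opposite direction 0 members were called, against 4.28% of all transcripts. At an unadjusted p under 0.05, 0 members were lower, against 3980 of the 20599 transcripts. DESeq2 called 0 members lower, against 980 of all transcripts. The log2 fold change was positive for 205 of the 208 members, and its median was 0.60, against 0.00 over all transcripts. The members called higher had log2 fold changes from 0.60 to 2.55, with a median of 0.85.

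**Figure D2:**
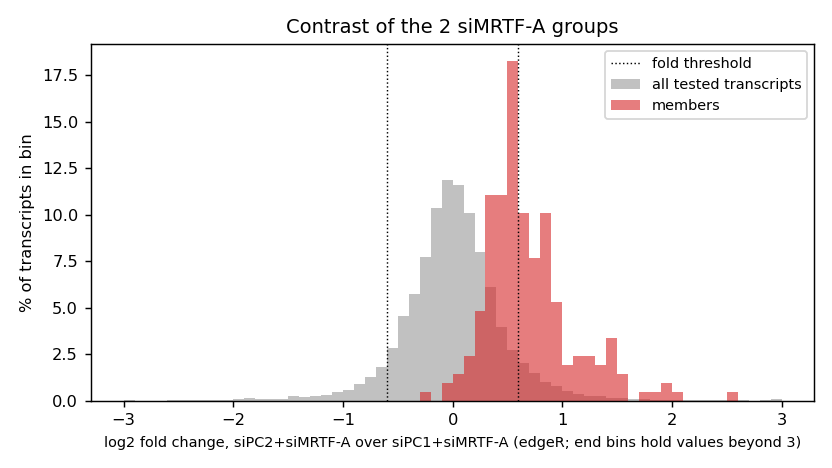
Share of transcripts (%) in bins of 0.1 of the log2 fold change between siPC2+siMRTF-A and siPC1+siMRTF-A, for the 208 members (red) and the 20599 transcripts whose normalized counts averaged 50 or more (grey); dotted lines mark a log2 fold change of 0.6 in either direction. The grey bars centre on 0, and the red ones on 0.60.

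The order of the libraries was read as well. In 158 of the 208 members (76.0%), all 4 siPC2+siMRTF-A libraries lay above all 4 siPC1+siMRTF-A libraries, against 19.7% of all transcripts. The reverse order was met by 0 members, against 13.1% of all transcripts. Of the 119 members that were not called, 105 had a log2 fold change of at most 0.6, and 59 had an adjusted p above 0.05. Of the settings tried, the use of the fold threshold moved the count of calls most. Without it, 149 members were higher at an adjusted p of at most 0.05, against 14.2% of all transcripts. A test against the threshold itself (edgeR's glmTreat) called 24 of the 208 members higher, against 184 of the 20599 transcripts.

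The arm difference was smaller with MRTF-A silenced than with MRTF-A intact in 191 of the 210 members, with medians of 0.62 and 0.99 on the log2(CPM + 0.5) scale. The intact difference is among the values that chose the members and the silenced one is not, so the medians are given side by side and their difference was not tested. With MRTF-A silenced, the arm difference was above 0 in 206 members (98.1%), against 54.9% of the 20292 transcripts, and at least 0.8 in 59 members. Over the 20292 transcripts its median was 0.04 and its upper quartile 0.27, and the share at or above 0.8 was not counted. Members with the larger intact difference tended to have the larger silenced difference (Spearman's rho 0.50 over the 210 members, and 0.70 over the 20292 transcripts). Transcripts of a library share its depth and composition and are not independent. The rule kept the members' intact difference above 0 (0.512 to 4.091), whereas the 20292 transcripts spanned -6.760 to 4.675, so the rho values are not compared. When the members were ordered by the siPC2 rise into 3 groups of 70, the median silenced difference was 0.54, 0.61 and 0.79 from the lowest to the highest group. The 4 siPC2+siMRTF-A libraries lay above the 4 siPC1+siMRTF-A libraries in 52, 56 and 50 members of these groups. The group with the highest rise also had the lowest levels, with a median of 6.83 CPM against 21.3 CPM in the group with the lowest rise.

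**Figure D3:**
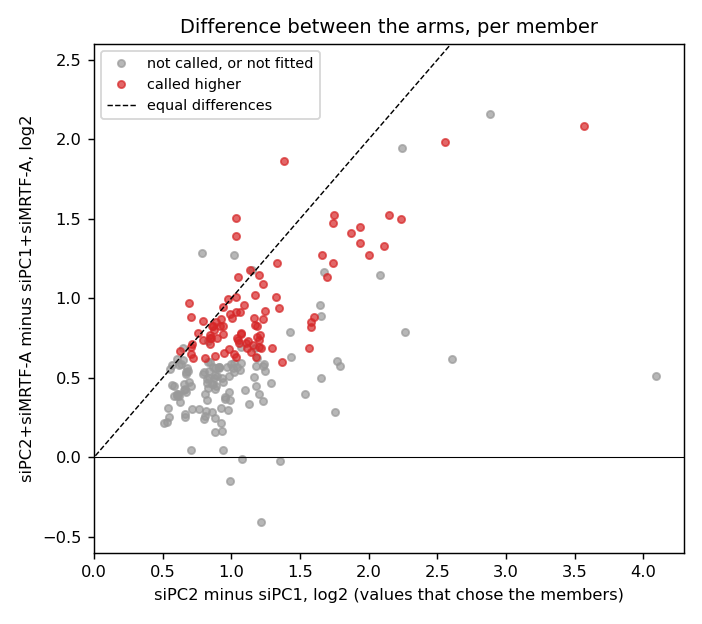
For each of the 210 members, the log2 difference between siPC2 and siPC1 (horizontal axis, among the values that chose the members) and between siPC2+siMRTF-A and siPC1+siMRTF-A (vertical axis, libraries not used in the choice); red points are the 89 called higher, grey points the others. Most points lie under the dashed line of equal differences, and 206 of 210 lie above 0, against 54.9% of the 20292 transcripts.

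Both siMRTF-A groups were then set against siNR, as a description, since the siNR libraries had a part in the choice. The siPC2+siMRTF-A level lay at a median of 0.84 above siNR, against 0.19 over the 20292 transcripts (quartiles -0.27 and 0.64). It was at least 0.8 above siNR in 116 members. All siPC2+siMRTF-A libraries lay above all siNR libraries in 166 of the 210 members, where 34.6% of the 20292 transcripts did so. The siPC1+siMRTF-A level lay at a median of 0.20 above siNR, against 0.15 over the 20292 transcripts (quartiles -0.36 and 0.66). It was within 0.3 of siNR in 104 members and at least 0.8 above it in 16. All of these 16 were also at least 0.8 above siNR in siPC2+siMRTF-A. The full pattern, with siPC2+siMRTF-A at least 0.8 above siNR and siPC1+siMRTF-A within 0.3 of it, was met by 42 members. The shares of all transcripts that met these limits of 0.3 and 0.8 were not counted, so nothing is read from the counts of members that met them. The members called higher and those not called differed mainly in the siPC1+siMRTF-A level, which stood at a median of 0.05 above siNR in the 89 and of 0.31 in the 119. The siPC2+siMRTF-A level stood at 0.95 and 0.81. That comparison follows from how the calls were made and was not tested.

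With siMRTF-A added to siPC2, 203 of the 210 members had a mean above that of siNR, against 61.5% of the 20292 transcripts. The siPC2+siMRTF-A level was below that of siPC2 in 155 members and above it in 55, with a median log2 difference of -0.22, against 0.03 over the 20292 transcripts. All siPC2+siMRTF-A libraries lay below all siPC2 libraries in 74 members, where 10.2% of all transcripts did so. Because the siPC2 libraries chose the members, nothing is read from these counts. A siPC2+siMRTF-A level within 0.3 of siNR was seen in 15 members, and 79 lay between 0.3 and 0.8 above it, with no share over all transcripts counted. In the other arm, siPC1+siMRTF-A stood at a median of 0.13 above siPC1, and 134 of the 210 members (63.8%) were higher. Over the 20292 transcripts the median was 0.01, and 51.6% were higher. The siPC1 libraries also had a part in the choice, which favoured a low siPC1 level, so nothing is read from this comparison either.

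The member with the largest called difference between the siMRTF-A groups was ENSSSCT00000012516.5, a transcript of low level whose counts were whole numbers in every library. Its level was 0.214, 0.282, 0.237 and 0.379 CPM in siNR replicates 1 to 4, and 0.905, 0.234, 0.412, 0.357 and 0.238 CPM in siPC1 replicates 1, 2, 3, 4 and A2. The 3 siPC2 libraries had 5.94, 3.95 and 4.72 CPM. Control and siPC1 libraries thus overlapped, while the siPC2 libraries stood clear of both, as the choice required. With MRTF-A silenced, its level was 0.516, 0.964, 0.712 and 0.437 CPM in siPC1+siMRTF-A replicates 1 to 4, and 3.69, 4.13, 4.25 and 3.96 CPM in siPC2+siMRTF-A replicates 1 to 4. The groups did not overlap, and siPC2+siMRTF-A was 5.84-fold higher, which is 2.55 on the log2 scale with a standard error of 0.28 (edgeR adjusted p = 0.000555). The siPC1+siMRTF-A values rest on 10 to 49 counts and the siPC2+siMRTF-A values on 149 to 293. This transcript reached the minimum of 1.3 CPM only through siPC2 and siPC2+siMRTF-A, and the mean count of 50 only through siPC2+siMRTF-A, so the group found higher helped to admit it and its size among the members is a description. All 4 siPC1+siMRTF-A libraries were above the siNR libraries, at a mean of 0.657 ± 0.235 CPM (SD, n = 4) against 0.278 ± 0.0731 CPM (SD, n = 4), a difference that was not tested.

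ENSSSCT00000023939.3 had the second largest called difference and a higher level. Its siPC2 libraries had 61.4, 52.0 and 55.3 CPM, and its siNR replicates 1 to 4 had 8.04, 0, 6.85 and 11.7 CPM. The siPC1 replicates 1, 2, 3, 4 and A2 had 0, 7.30, 11.3, 12.1 and 3.82 CPM. It is thus listed at 0 in a deep library, siNR replicate 2, in which 3 counts would have given 0.0845 CPM, and also in siPC1 replicate 1. Its counts were divided among transcripts (not whole) in 18 of the 20 libraries, which is every library where it was not listed at 0. In siPC1+siMRTF-A it stood at 11.2, 5.95, 9.66 and 15.9 CPM, and in siPC2+siMRTF-A at 40.1, 42.5, 47.9 and 47.4 CPM. These groups did not overlap either, with a log2 fold change of 2.05 (standard error 0.25, edgeR adjusted p = 0.000916), a fold of 4.13. When all 20 libraries were fitted in 1 model, the estimate was 2.03 and the call was lost (edgeR adjusted p = 0.0681). Its place among the members also rests on siPC1 replicate 1. Without that library, siPC1 stood 0.93 above siNR, past the limit of 0.3.

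At the other end, the 2 members with the lowest difference were not called. ENSSSCT00000034701.3 had 5.38, 5.07 and 4.98 CPM in siPC2, against 1.52 to 2.21 CPM in siNR and 1.96 to 2.78 CPM in siPC1. In siPC1+siMRTF-A its level was 3.02, 4.08, 3.29 and 3.52 CPM, and in siPC2+siMRTF-A it was 2.39, 2.89, 3.65 and 3.45 CPM. The siMRTF-A groups overlapped, and both lay between siNR and siPC2, with a log2 fold change of -0.21 (standard error 0.20, edgeR adjusted p = 0.541). Its counts were not whole in any of the 20 libraries, and without siPC1 replicate 1 its siPC1 level stood 0.32 above siNR, just past the limit.

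ENSSSCT00000085982.2 was a member by a narrow separation. Its lowest siPC2 library and its highest siPC1 library were both at 10.9 CPM, and siPC1 replicate 1 was listed at 0, where the other siPC1 libraries had 8.49 to 10.9 CPM and siNR had 5.30 to 7.05 CPM. Without siPC1 replicate 1, siPC1 stood 0.64 above siNR, and the transcript would not have been chosen. In siPC1+siMRTF-A its level was 13.3, 11, 10.2 and 11.7 CPM, and in siPC2+siMRTF-A it was 10.3, 9.47, 11.6 and 14.3 CPM. These groups overlapped fully (log2 fold change -0.05, standard error 0.15, edgeR adjusted p = 0.856).

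**Figure D4:**
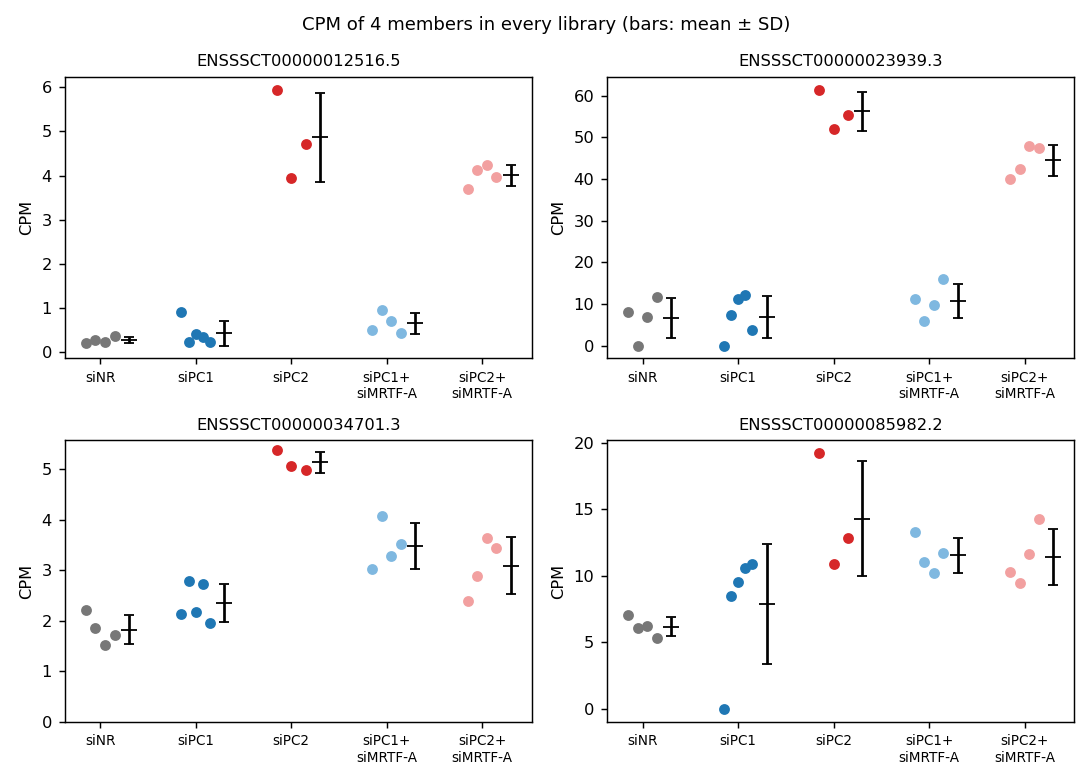
CPM of ENSSSCT00000012516.5, ENSSSCT00000023939.3, ENSSSCT00000034701.3 and ENSSSCT00000085982.2 in every library (points) by group, with the mean ± SD beside them. In the upper panels siPC2+siMRTF-A stays far above siPC1+siMRTF-A (for ENSSSCT00000012516.5, 3.69 to 4.25 against 0.437 to 0.964 CPM), and in the lower panels these groups overlap.

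The rise was also read in siPC2 libraries that a repeat of the choice had not used. With siPC2 replicate 2 left out, the rule took 217 transcripts, whose median was 0.996 above siNR in the siPC2 libraries used and 1.031 in the library left out. With replicate 3 left out it took 252, with medians of 0.999 and 0.892, and with replicate 4 left out it took 224, with medians of 1.004 and 0.974. The library left out lay above every siNR and siPC1 library (siPC1 replicate 1 ignored) in 193 of 217 (88.9%), 217 of 252 (86.1%) and 210 of 224 transcripts (93.8%), against 20.9%, 15.8% and 16.3% of the 20292 transcripts. The siNR and siPC1 libraries were those of the choice in each case, so these shares are not independent of it, and no test was made.

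Apart from the minimum mean, the rule set no limit on mean level, whole counts or counts of 0. It could still affect the level and the counts of 0. Every siPC2 library of a member had to lie above every siNR library, so its count could not be 0 in siPC2. The rise and siPC1 limits used log2 levels with a constant added to the CPM, which damps differences at low levels. The members' mean level ranged from 1.3 to 1584 CPM, with a median of 12.3 CPM, against 15.8 CPM over the 20292 transcripts. Counts were whole, within 0.0005, in all 20 libraries for 7 members (3.33%) and for 1.42% of all transcripts, and not whole in any library for 60.0% and 62.0%. A count of 0 in at least 1 library was found in 25 members (11.9%), against 12.1% of all transcripts. These shares are given as descriptions, and the differences were not tested.

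The same rule with the siRNAs exchanged took 184 transcripts raised by siPC1 only. Of the 183 with enough counts, 65 (35.5%) were called lower in siPC2+siMRTF-A than in siPC1+siMRTF-A and 0 higher, with a median log2 fold change of -0.53. Over all transcripts, 4.28% were called lower and 4.82% higher. A further 1982 transcripts were raised by at least 0.8 in both arms, with every siPC1 (replicate 1 apart) and siPC2 library above every siNR library. Of the 1980 with enough counts, 64 (3.23%) were called higher, which is below the 4.82% of all transcripts. Another 243 (12.3%) were called lower, against 4.28% of all transcripts, and the median was -0.10. The 3 lists exclude each other by their rules, and the differences between them were not tested.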

How the data were processed

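RNA-Seq libraries of LLC-PK1 cells (poly(A)-selected, with a directional kit) were analysed as the sample labels group them. The authors trimmed the reads and quantified transcripts with Salmon 0.14.1 (the submitters' processing notes name FastQC 0.11.8 and Trim Galore 0.6.3 too) against the Ensembl coding sequences of Sscrofa11.1, and deposited these estimated counts without normalization or sums per gene. Reads in untranslated regions were thus not counted.

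The members and lists were chosen with earlier results of these data known. The counts were rounded and fitted in R 4.3.3 with edgeR 4.0.16, with filterByExpr by group, TMM factors and the quasi-likelihood test on the 8 siMRTF-A libraries. Of the transcripts fitted, 20599 had a mean normalized count of at least 50. Standard errors were derived from the F statistic. Named members were the 2 highest and 2 lowest log2 fold changes among members with that mean count, called ones first. The fitting was tested on simulated counts. Alternatives were DESeq2 1.42.0, library totals, no filter, a model of all groups, no fold threshold, glmTreat, no minimum mean count, the replicate number as a block, and each library left out. Depth sets the precision: a count of 0 allows up to 3 counts, which covers counting error only.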

Additional observations from a re-analysis of the deposited data

Results flagged for a closer look

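In 20 groups of 4 or 5 libraries (the 4 named members, and the median over the members), a library that stood apart was looked for. Its gap to its nearest neighbour had to take most of the range of its group, and 2 were found. The usual chance rate of about 1 in 20 groups does not apply here. The members were chosen on siNR, siPC1 and siPC2 values, and the 4 named ones by rank. Both flagged libraries were siPC1 replicate 1, the shallowest library. For ENSSSCT00000012516.5 it had 0.905 CPM, which rests on 4 counts, against 0.234 to 0.412 CPM in the other siPC1 libraries. For ENSSSCT00000085982.2 it was listed at 0, against 8.49 to 10.9 CPM in the others. Without that library siPC1 stood 0.64 above siNR, past the limit of 0.3, so the choice favoured this flag.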

How the results depend on the processing

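The count of members called higher in siPC2+siMRTF-A (89) moved most with the use of the fold change, to 149 without a fold threshold and to 24 with glmTreat. Over all transcripts, 992 were called higher in the main fit, 2923 without a fold threshold and 184 with glmTreat. The count of members was 89 with DESeq2 (88 of them among the 89), 98 with library totals and 86 without the filter. It was 79 with all 5 groups in 1 model and 89 without a minimum mean count. Over all transcripts these settings called, in the same order, 1060, 1106, 908, 808 and 1076 higher. Leaving out each of the 8 libraries gave 79 to 91 members, against 852 to 956 of all transcripts. The median log2 fold change over the members was then 0.59 to 0.63. In each of these fits 0 members were called lower. Without both libraries numbered 1, chosen after seeing the data, 84 members were called higher, against 897 of all transcripts. With the minimums on siPC1+siMRTF-A alone, also chosen then, 82 were, against 898 of all transcripts. The 4 pairs of libraries with the same number had correlations of their deviations from the group means of 0.56, 0.02, 0.01 and 0.09, so the numbers were not taken to pair them, and not every library correlated best with its own number. With the replicate block, 89 members were called higher, 85 of them the same, against 943 of all transcripts. Left-out libraries gave 159 to 174 members with separated groups, against 158 with all 8. Leaving out a library can only keep or raise this count, so its range is no measure of stability, and it was not counted over all transcripts.

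The list itself held 194 to 252 transcripts when each siNR, siPC1 or siPC2 library was left out, 201 with a pseudocount of 1, 280 without the minimum CPM, and 215 (142 of them among the 210) without both shallow libraries, a choice made after seeing the data. Of the 215, 43.3% were called higher, and of the 151 fitted transcripts that met the rule on TMM-scaled CPM, 44.4% were. The value of ENSSSCT00000085982.2 was -0.184 to 0.031 with each library left out (above 0 without siPC2+siMRTF-A replicate 1 or replicate 2) and 0.066 without both libraries numbered 1, and it was not called in any of these. The call of ENSSSCT00000023939.3 was lost with all groups in 1 model. In siPC1 replicate 1, 16 members had a count of 0, so a low level there is limited by depth.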
